A study of Homo sapiens with 8 samples.

Results

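Cytosolic ribosomal protein genes encode the proteins that, with the ribosomal RNAs, form the large (RPL) and the small (RPS) subunit of the ribosome. The group held the 77 genes whose symbol was RPL or RPS followed by a number and optionally an A or X, together with RPLP0, RPLP1, RPLP2 and RPSA, out of 60230 genes in the table. Of these, 46 belonged to the large and 31 to the small subunit, and each symbol stood for 1 gene. Pseudogenes and paralogs such as RPS27L were not members, and the choice used the symbols alone.

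The data were polyA RNA-seq counts from CYP3A4-overexpressing HepG2 cells, a human hepatoma line that was made to carry extra CYP3A4, the main drug-oxidizing cytochrome P450 of the liver. The 8 samples fell into 4 groups of 2 replicates: DMSO (0.2%), compound 4 (labelled metylcresol), compound 5 (labelled tetrabut) and compound 6 (labelled cyclohexil), for 24 h. All groups, DMSO included, carried the CYP3A4 construct and grew in medium with blasticidin, so cells without the construct were not part of the comparison. Each compound was given at its own IC50, so the molar doses differed between compounds and a difference between compounds cannot be told apart from a difference between doses. The compounds are bisphenol antioxidants of plastics. Compound 4 has a methylene bridge and a tert-butyl and a methyl group on each ring, compound 6 has cyclohexyl in place of tert-butyl, and compound 5 has an ethylidene bridge and only tert-butyl groups on its rings. The replicates carry the labels day 1 and day 2 as a time, while the study's methods give a single exposure of 24 h. What the day marks is therefore not clear, and every SD over 2 samples includes it. Nothing in the sources says that the replicates came from independent cultures, so p-values measure the spread between these samples, which may be technical.

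Each library held 9472261 to 13308975 counts, and the 6 liver cell markers ALB, APOA1, TTR, SERPINA1, AFP and HNF4A were expressed in every sample, with summed levels of 26420 to 29780 CPM (counts per 1000000 of the TMM-scaled library size) in DMSO and 20230 to 25200 CPM with the compounds. None of the 5 fibroblast and 5 endothelial markers was abundant enough to be tested, and of the 5 blood cell markers only LYZ was. For LYZ and its list the summed level was 2383 to 2993 CPM in DMSO and 1854 to 2644 CPM with the compounds, and the part of these marker levels in the results on ribosomal protein genes was not tested.

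Ribosomal protein mRNAs are among the most abundant of a growing cell, and their proteins are needed in equal numbers. The mRNAs begin with a run of pyrimidines next to the cap, the 5′ terminal oligopyrimidine (TOP) motif. Through this motif the kinase mTOR and the cap-binding protein LARP1 set how much of these mRNAs is translated and kept, while MYC and RNA polymerase I set how many ribosomes are built. Hepatocytes and hepatoma cells need many ribosomes for the plasma proteins they secrete.

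The start of the mRNA is shown for members on which the results turn: RPS26, the member called lower under compound 5; RPL36A, RPL12, RPS21, RPS28 and RPL13A, at the ends of the range of change; RPLP1, among the most abundant per length; and RPS27, RPL26 and RPL9, whose replicates differed most or which have a paralog below. Sequences are from RefSeq (GRCh38.p14), 12 bases before and 18 bases from the annotated start, with the strand given, and capitals mark a pyrimidine run of at least 8 bases that reached within 5 bases of the start.
RPS26, chr12:56041906-56041935, plus strand: acacataacctcgaTTTTCTTCCgccatcc
RPLP1, chr15:69452806-69452835, plus strand: taggcgcgagagCCCCTTTCCTCagctgcc
RPL13A, chr19:49487596-49487625, plus strand: caaaaCCTCCTCCTTTTCCaagcggctgcc
RPS21, chr20:62387091-62387120, plus strand: gactagctgCTTCCTTTCTCTCTCgcgcgc
RPS28, chr19:8321484-8321513, plus strand: ccgaagcacgtgaCTCCTCTCCgccagacc
RPL36A, chrX:101390999-101391028, plus strand: gcctcgcggTTTCTTTCTTTCCgcgccgat
RPS27, chr1:153990750-153990779, plus strand: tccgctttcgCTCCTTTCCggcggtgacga
RPL26, chr17:8383176-8383205, minus strand: cagcgtgtagTTCTCTTCCCTTTTgcggcc
RPL12, chr9:127451389-127451418, minus strand: cgcgatttccggcctctcggctttcggctc
RPL9, chr4:39458905-39458934, minus strand: cgtaatgacgacagacgttctttctttgct

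Starts were listed for 62 of the 77 members, 77 starts in all. Such a run (8 or more bases of C or T in a row on the strand of the gene) was present at 52 of these 77 starts (67.5%), against 11.2% of all 35116 starts in the table. The same search for purines, which is a pyrimidine run on the other strand, found 2 of the 77 starts (2.6%), against 8.29% of all starts. In RPL12 and RPL9 no run of 8 bases came within 5 bases of the annotated start. The window of RPL9 holds a run further downstream, which the distance left unmarked. Among translation factors with TOP mRNAs, 9 of 12 genes with a listed start had a run, and among mitochondrial ribosomal protein genes, whose products form a separate ribosome, 7 of 69 had it.

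The members shared other features that the rule did not use. They lay on 21 chromosomes, with 12 of them on chromosome 19. Their transcripts were short, with a median length of 681.5 bases (359 to 1526) against 1715.5 bases for all genes tested, while their GC content (median 50.4%) was near that of all genes tested (50.2%). Every member passed the filter on low counts. Their mean level ran from 86.3 to 2713 CPM with a median of 767 CPM, against 24.6 CPM for the 13404 genes tested, and 23 of the 100 most abundant genes were members. Part of each member's sequence is also present in other genes: a median of 12.7% of its 31-base words (2.38% to 46.6%), and more than 20% in 18 members. How the reads of these members were split between a gene and its copies is therefore uncertain. The 1586 pseudogenes named after members held only 0.128% to 0.147% of the counts of a sample.

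Per kilobase of transcript, RPS2, which lines the entry channel of the mRNA, had the highest level in DMSO, at 3179 ± 229 CPM per kb (SD, n = 2). RPLP0, the base of the stalk that binds elongation factors, followed at 2876 ± 187 CPM per kb, and RPLP1, which sits on RPLP0 in the stalk, at 2461 ± 253 CPM per kb. These neighbours in the order differed by about the spread between the replicates or little more. RPS26, a protein of the small subunit at the exit of the mRNA, had the lowest level, at 89.2 ± 5.25 CPM per kb. RPS28, also near the mRNA exit, was at 154 ± 11.7 CPM per kb and RPL36A, a protein next to the exit site of the tRNA, at 236 ± 0.109 CPM per kb. The levels per kb rest on the median length of each gene's coding transcripts, which is 1326 bases for RPS28 and 1140 bases for RPS26, but RPS26 was also the lowest member in CPM without any length (86.3, the next member 161).

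The ribosomal protein genes took nearly the same share of the counts in every group. In DMSO they held 7.03% and 6.42% of all counts in replicates 1 and 2. Under compound 4 they held 6.76% and 7.99%, under compound 5 they held 6.20% and 6.68%, and under compound 6 they held 6.82% in both. The highest sample was compound 4 replicate 2 and the lowest compound 5 replicate 1, and the DMSO samples overlapped those of each compound. The means were 6.72 ± 0.430% in DMSO, 7.38 ± 0.867% under compound 4, 6.44 ± 0.340% under compound 5 and 6.82 ± 0.005% under compound 6 (SD, n = 2). An exact two-sided permutation test of 2 against 2 samples cannot give a p below 0.333, so none was used.

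Both subunits were measured in every sample. The large subunit held 4.13% and 3.82% of the counts in DMSO, 4.01% and 4.75% under compound 4, 3.68% and 3.99% under compound 5 and 4.02% and 4.11% under compound 6. For the small subunit the shares were 2.90% and 2.60%, 2.75% and 3.24%, 2.52% and 2.69%, and 2.80% and 2.71%, in the same order. Counts on the large subunit divided by counts on the small one gave 1.42 and 1.47 in DMSO replicates 1 and 2, 1.46 and 1.47 under compound 4, 1.46 and 1.49 under compound 5, and 1.43 and 1.52 under compound 6. Each group overlapped DMSO, while each treated sample lay above the DMSO sample of the same number, by little under compound 4 in replicate 2. This difference was not tested. In bulk RNA, fewer cells expressing a gene and less RNA of it per cell cannot be told apart.

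**Figure D1:**
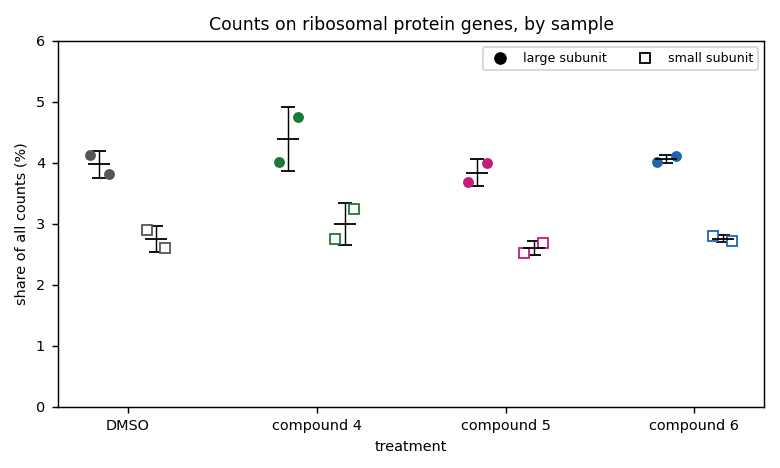
Share of all counts (%) held by large (filled circles) and small subunit genes (open squares) in each sample by treatment, with the mean and SD of the 2 replicates in black. The large subunit lies between 3.68% and 4.75% and the small one between 2.52% and 3.24%, and the highest sample of both is replicate 2 of compound 4.

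Single members changed little. Against DMSO, edgeR's quasi-likelihood test with Benjamini-Hochberg adjustment over all 13404 genes called 0 of 77 members under compound 4, 1 under compound 5 and 0 under compound 6. Over all genes tested, it called 11.9% under compound 4, 28.1% under compound 5 and 4.4% under compound 6. DESeq2 gave the same 3 counts of members, with 10.9%, 22.5% and 6.25% of all genes called. At an unadjusted p under 0.05, 9 members passed under compound 4, all higher, against 27% of all genes, 1 under compound 5 against 41.5%, and 1 under compound 6, lower, against 20%. The member called under compound 5 was RPS26. The smallest adjusted p of any member in the same test was 0.0936 under compound 4 (RPS28) and 0.179 under compound 6 (RPS26).

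Relative to TMM scaling, and for the spread between these samples as modelled, the intervals bounded the changes of single members. If the replicates were technical, the spread between cultures is not covered. The standard error of a member's log2 fold change was 0.102 to 0.185. The 95% interval of the fold change lay within 2-fold for all 77 members in each of the 3 comparisons with DMSO. It lay within 1.5-fold for 74 members under compound 4, 76 under compound 5 and 77 under compound 6. The lowest bound was that of RPS26 with each compound (log2 -0.42, -0.80 and -0.57), and the highest that of RPL34, a large subunit protein (log2 0.64, 0.46 and 0.47).

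**Figure D2:**
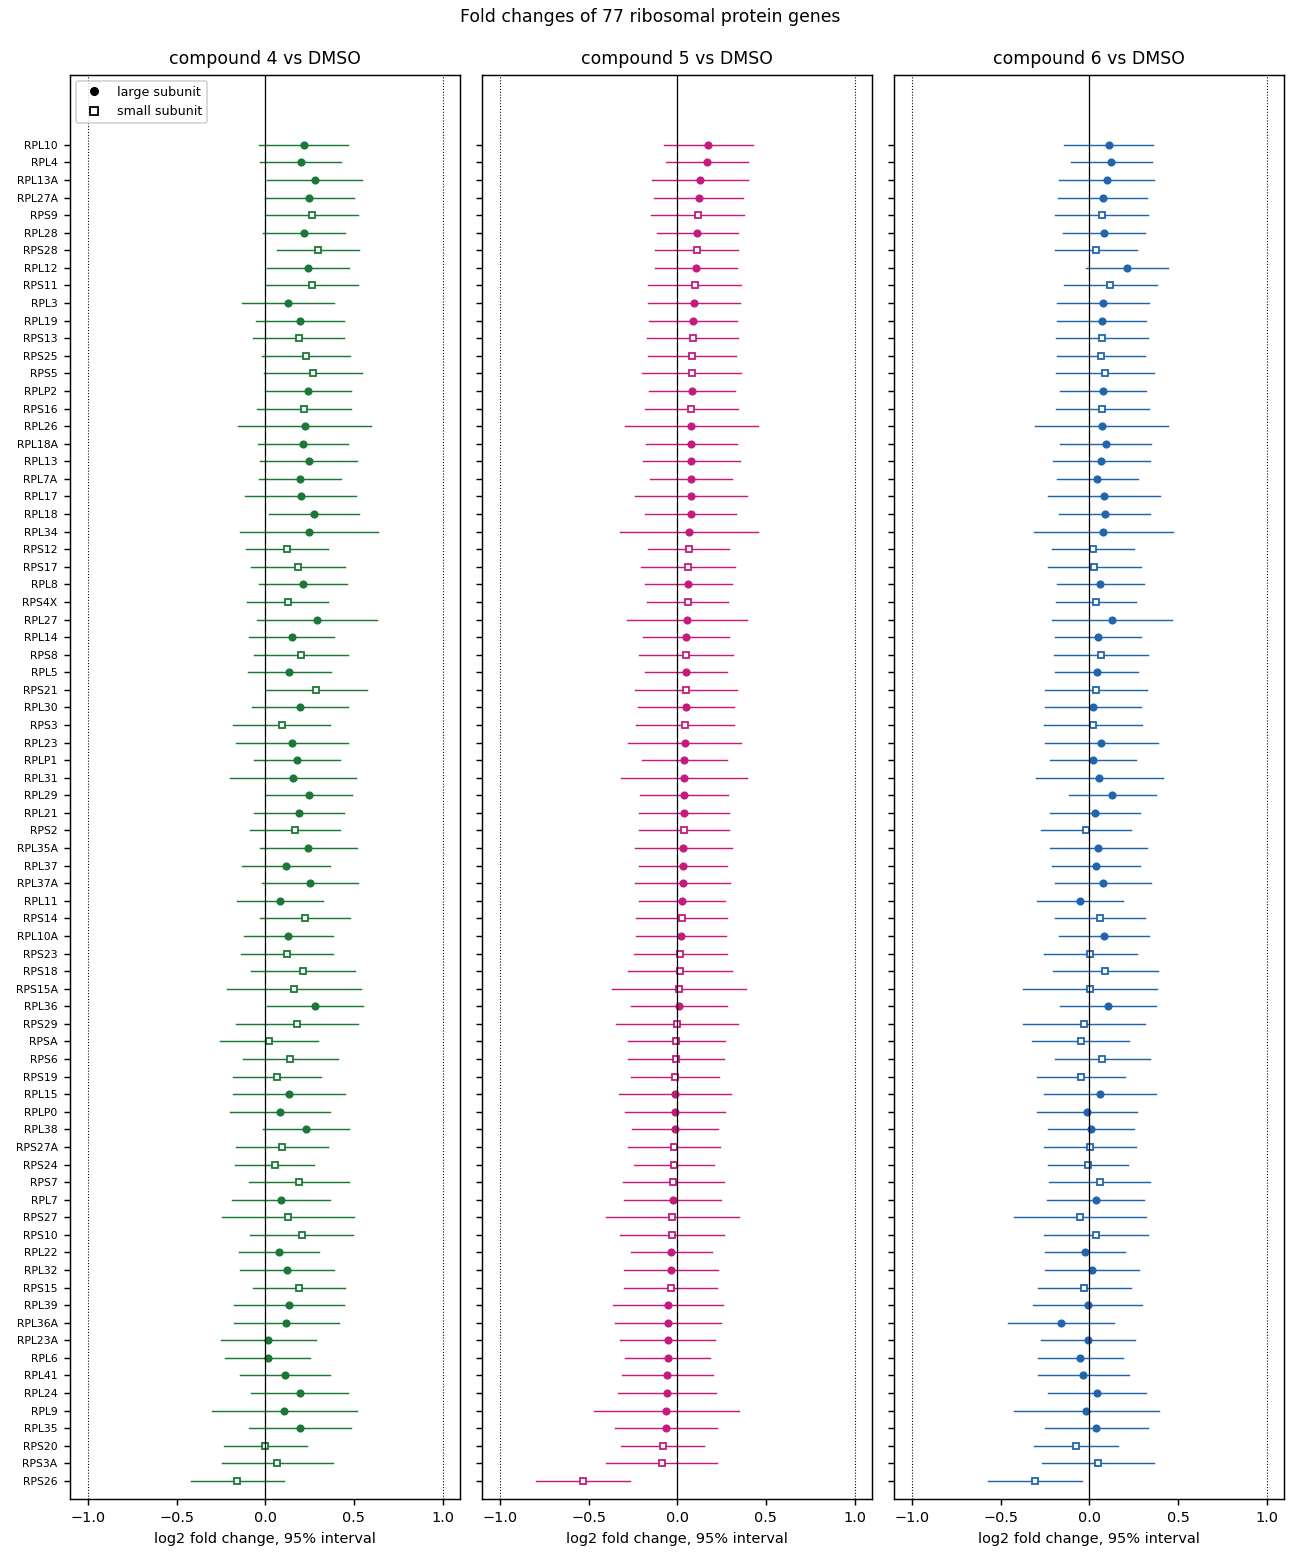
Log2 fold change (horizontal) of each of the 77 members (vertical, ordered by the change under compound 5) against DMSO, with 95% intervals from edgeR; filled circles are large and open squares small subunit genes, and dotted lines mark 2-fold. All intervals stay inside the dotted lines, the points of compound 4 lie mostly right of 0, and RPS26 at the bottom is the lowest point with each compound.

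Under compound 4, the members lay slightly above DMSO. The median log2 fold change was 0.20 for the large and 0.18 for the small subunit, against 0.0001 for all genes tested, and 76 of 77 members had a positive value. RPS28 had the highest, at 0.30 ± 0.11 (SE), followed by RPL27, a large subunit protein, at 0.29 ± 0.15, and RPS21, of the small subunit, at 0.29 ± 0.13. Their adjusted p-values in edgeR were 0.0936, 0.252 and 0.181. RPS28 was at 215 and 194 CPM in DMSO and at 238 and 264 CPM under compound 4, without overlap. For RPL27, DMSO gave 886 and 860 CPM and compound 4 gave 892 and 1249 CPM, so that nearly all of its difference lay in replicate 2. At the other end, RPS26 (log2 -0.16), RPS20 (0.00) and RPL6 (0.01) had the lowest values.

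This height rested on replicate 2 of compound 4. Without it the median log2 fold change was 0.06 for each subunit, and without replicate 1 it was 0.32 for the large and 0.29 for the small subunit. With a single sample left in the group, its spread was taken to equal that of the other groups. On that assumption, without replicate 1, edgeR called 6 members higher, RPL13A, RPL27, RPL34, RPS21, RPS29 and RPS9, with log2 fold changes of 0.41 to 0.52, and 6.15% of all genes higher. Leaving out replicate 1 of DMSO gave medians of 0.25 for both subunits, and leaving out replicate 2 gave 0.12 and 0.08. Both compound 4 samples lay above both DMSO samples in 25 members and below them in 0, where 27.5% of all genes tested lay above and 27.1% below.

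Under compound 5, the medians were 0.04 for the large and 0.02 for the small subunit, against -0.03 for all genes tested, and 51 of 77 members had a positive value. RPL10, which joins the large subunit last and shapes its peptidyl transferase centre, had the highest log2 fold change at 0.17 ± 0.11, with 1593 and 1523 CPM in DMSO and 1663 and 1853 CPM under compound 5. RPL4, a lining of the exit tunnel, followed at 0.17 ± 0.10 and RPL13A at 0.13 ± 0.12. None of these passed the test, with adjusted p-values in edgeR of 0.271, 0.25 and 0.459. Below RPS26, RPS3A had a log2 fold change of -0.09 and RPS20 one of -0.08, each smaller than its standard error. Both compound 5 samples lay above DMSO in 7 members and below in 2, RPS20 and RPS26, against 32.9% and 37.3% of all genes tested. The sign of the medians depended on the scaling of the libraries: with library size alone they were -0.06 and -0.09, and with upper quartile scaling -0.05 and -0.07. With 1 sample left out they ran from -0.01 to 0.12 for the large and from -0.03 to 0.12 for the small subunit, lowest without DMSO replicate 2 and highest without DMSO replicate 1.

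RPS26 was the only member that fell in a called comparison. It lies on chromosome 12 (56041351 to 56044697, plus strand, GRCh38), is held by the chaperone TSR2 on its way to the ribosome, and is among the genes mutated in Diamond-Blackfan anaemia. Its level was 106 and 97.5 CPM in DMSO, 83.0 and 99.3 CPM under compound 4, 70.5 and 70.2 CPM under compound 5, and 87.5 and 76.8 CPM under compound 6. Both samples of compounds 5 and 6 lay below both DMSO samples, while those of compound 4 overlapped them. The log2 fold change under compound 5 was -0.53 ± 0.12 (95% interval -0.80 to -0.27, edgeR adjusted p = 0.00873). Under compound 6 it was -0.31 ± 0.12 (adjusted p = 0.179) and under compound 4 -0.16 ± 0.12 (adjusted p = 0.44). TSR2 belonged to the 6 ribosomal protein chaperones, of which 0 passed the edgeR test with any compound, where 11.9%, 28.1% and 4.4% of all genes tested were called under compounds 4, 5 and 6. At an unadjusted p under 0.05 it was 0, 0 and 1, against 27%, 41.5% and 20% of all genes tested. With the longest-transcript correction, 1 chaperone was called higher under compound 5, against 18.3% of all genes. TSR2 was at 41.5 and 34.3 CPM in DMSO, 33.4 and 37.0 CPM under compound 4, 30.4 and 34.5 CPM under compound 5, and 32.2 and 24.9 CPM under compound 6. Its log2 fold change under compound 6 was -0.41 ± 0.16 (edgeR adjusted p = 0.169), the lowest of the chaperones.

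The call on RPS26 was held by a narrow margin. With each of the tested scalings, filters and models that kept all samples, and with DESeq2, the log2 fold change under compound 5 was -0.33 to -0.64 and the call remained. It was lost without DMSO replicate 1 (adjusted p = 0.0763), without compound 5 replicate 1 (0.0713) and without compound 5 replicate 2 (0.0585) in edgeR, where the log2 fold change was -0.47, -0.51 and -0.53. Of its 31-base words, 21.5% occur in other genes. Its 36 pseudogenes held 27 to 89 counts a sample, against 769 to 1273 for RPS26, and adding the pseudogenes to their parents gave -0.56 (adjusted p = 0.0068). The start shown above carries a pyrimidine run, of 9 bases, as do 49 of the 62 members with a listed start.

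**Figure D3:**
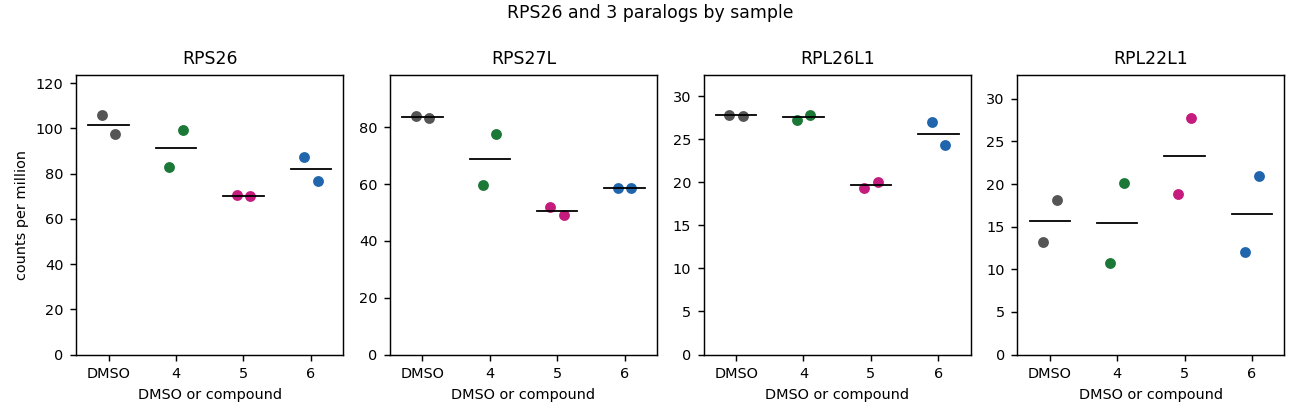
Level in CPM of RPS26 and of the paralogs RPS27L, RPL26L1 and RPL22L1 in each sample (points), with the mean of the 2 replicates as a line, for DMSO and compounds 4, 5 and 6. RPS26 lies at 97.5 to 106 CPM in DMSO and at 70.2 to 70.5 CPM under compound 5, and RPS27L and RPL26L1 are also lowest under compound 5.

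Under compound 6, the medians were 0.06 for the large and 0.04 for the small subunit, against 0.003 for all genes tested, and 59 of 77 members had a positive value. RPL12, at the base of the stalk, had the highest log2 fold change at 0.21 ± 0.10 (edgeR adjusted p = 0.296), with 743 and 663 CPM in DMSO and 814 and 813 CPM under compound 6. RPL29 and RPL27 followed at 0.13 each. RPL36A had the second lowest value at -0.16 ± 0.14, with 163 CPM in both DMSO samples and 136 and 156 CPM under compound 6. Neither end of this range passed the test. Both compound 6 samples lay above DMSO in 7 members and below in 3, RPL36A, RPS20 and RPS26, against 26.3% and 26.6% of all genes tested. Without DMSO replicate 2 the medians were -0.02 and -0.06, and without DMSO replicate 1 they were 0.12 and 0.11.

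Members with further roles had values within the range of the rest. The stalk proteins RPLP0, RPLP1 and RPLP2 had log2 fold changes of 0.08, 0.18 and 0.24 under compound 4, of -0.01, 0.04 and 0.08 under compound 5, and of -0.01, 0.02 and 0.08 under compound 6. RPSA, which also occurs as a laminin receptor, was at 0.02, -0.004 and -0.05 on the same scale. RPL5 and RPL11, which bind MDM2 when ribosome assembly fails, and RPS6, the target of the S6 kinases, were named for these roles outside the rule for named genes, after their values were seen. RPL5 had log2 fold changes of 0.14, 0.05 and 0.04 under compounds 4, 5 and 6, RPL11 of 0.09, 0.03 and -0.05, and RPS6 of 0.14, -0.007 and 0.07. The smallest adjusted p of these 3 genes in edgeR was 0.452.

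In direct comparisons of the compounds, each at its own IC50, no member passed the edgeR test. Compound 5 against compound 4 called 0 members (13.9% of all genes tested), compound 5 against compound 6 called 0 (9.91%) and compound 4 against compound 6 called 0 (0.0448%). DESeq2 called 0 members in each as well (14.2%, 9.51% and 0.534% of all genes). In edgeR, 3, 0 and 1 members passed at an unadjusted p under 0.05, against 32%, 27.5% and 9.81% of all genes tested. The median log2 difference between compound 5 and compound 4 was -0.15, and 77 of 77 members were on the lower side. For compound 4 against compound 6, which differ in tert-butyl against cyclohexyl groups, it was 0.14 with 77 of 77 on the higher side, and for compound 5 against compound 6 it was -0.01. These signs share the compound 4 samples, of which replicate 2 was the high one, and without replicate 1 edgeR called 11 members lower under compound 5 than under compound 4, along with 8.73% of all genes. That call sets 1 library against 2 and takes its spread from the other groups. RPS26 had the lowest value between compounds 5 and 4, at -0.37 ± 0.12 (95% interval -0.64 to -0.11, edgeR adjusted p = 0.0611), and was called with library size alone (adjusted p = 0.0344) and with upper quartile scaling (0.04). Between compounds 5 and 6 it was -0.22 ± 0.12 (adjusted p = 0.262). The 95% interval lay within 1.5-fold for 76, 77 and 77 members in these 3 comparisons, and within 2-fold for all.

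The spread between replicates was shared by most members in 3 of the 4 groups. On the log2 CPM scale, replicate 2 minus replicate 1 had a median over members of -0.16 in DMSO, where 72 of 77 members were lower in replicate 2. In compound 4 the median was 0.25, with 76 members higher in replicate 2, in compound 5 it was 0.08 with 63 higher, and in compound 6 it was 0.02 with 41 higher. Over all genes tested the medians were between -0.007 and 0.008. Most members therefore shifted the same way between the replicates of DMSO, of compound 4 and of compound 5, but not of compound 6. The median gap of 0.25 in compound 4 was larger than the median change of either subunit between any compound and DMSO (at most 0.20).

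The order of the members in this gap was also alike from group to group. The gaps of the 77 members had a Pearson correlation of 0.37 to 0.75 between the 6 pairs of groups, against -0.09 to 0.11 over all genes tested and -0.57 to 0.66 over the 2262 other genes at or above the level of the least abundant member. These are correlations across genes that share the same 8 libraries, and genes are not independent replicates. RPL9 had the highest gaps on average, with 0.08 in DMSO, 0.63 under compound 4, 0.37 under compound 5 and 0.16 under compound 6. RPS18 had the lowest, with -0.38, 0.07, -0.09 and -0.21. The gaps had a correlation with the GC content of the members of -0.42, -0.31, -0.08 and -0.36 in the 4 groups.

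Other genes of ribosome supply were counted list by list, in lists drawn up with earlier results of these data known. Of the 8 paralogs, 5 were expressed enough to be tested and RPL3L, RPL10L and RPL39L were not. RPS27L, a p53 target and paralog of RPS27, was at 84.0 and 83.2 CPM in DMSO, 59.9 and 77.5 CPM under compound 4, 51.8 and 49.1 CPM under compound 5 and 58.6 and 58.7 CPM under compound 6. It fell under compound 5 (log2 -0.73 ± 0.13, edgeR adjusted p = 0.00246) and compound 6 (-0.51 ± 0.13, 0.0494, and 0.0617 once replicates were blocked by number). Its member counterpart RPS27 had log2 fold changes of -0.03 and -0.05 in these comparisons. RPL26L1 fell under compound 5 (-0.49 ± 0.12, edgeR adjusted p = 0.0133), against 0.08 ± 0.17 for RPL26. Of the 31-base words of RPL26L1, 45.2% occur in other genes, and 42.7% in pseudogenes named after members. Its level was 19.3 to 27.9 CPM, and how its reads were split between these copies is uncertain. Both paralogs were also lower under compound 5 than under compound 4 (edgeR adjusted p = 0.0435 for RPS27L and 0.0295 for RPL26L1). RPL22L1 had the highest paralog value under compound 5, 0.57 ± 0.32, but its 2 replicates differed by nearly as much (18.9 and 27.7 CPM) and it did not pass (edgeR adjusted p = 0.203, and 0.021 with the block). RPL7L1 and RPL36AL had adjusted p-values of 0.274 or more in every comparison with DMSO. With 1 library left out of DMSO or of compound 5, 1 of the 2 paralogs remained called under compound 5. Of the 5 tested, 0, 2 and 1 were called lower under compounds 4, 5 and 6, where 5.42%, 14.2% and 1.6% of all genes tested were called lower.

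FAU, which delivers a ribosomal protein joined to a ubiquitin-like part, and RACK1, a scaffold on the small subunit, had values of the same size as the members. The log2 fold changes of FAU were 0.28, -0.04 and -0.003 under compounds 4, 5 and 6, and those of RACK1 were 0.12, 0.16 and 0.11. Neither passed the edgeR test against DMSO, with adjusted p-values of 0.197 or more. Among the 69 ribosomal protein pseudogenes with enough counts, edgeR called 0, 2 and 0 under compounds 4, 5 and 6, the 2 of them lower, where 11.9%, 28.1% and 4.4% of all genes tested were called and 14.2% were called lower under compound 5. With the replicate block, 0 pseudogenes were called.

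Of 18 genes listed as translation factors with TOP mRNAs (a pyrimidine run was found in 9 of the 12 with a listed start), edgeR called 2 higher under compound 4, 3 under compound 5 and 0 under compound 6, and 0 lower. The share of all genes called higher was 6.5%, 13.9% and 2.8%. EEF2, the translocation factor of elongation, was at 4933 and 4595 CPM in DMSO and rose under compound 4 to 6392 and 6037 CPM (log2 0.38 ± 0.10, edgeR adjusted p = 0.036, and 0.0528 with the replicate block) and under compound 5 to 6441 and 6470 CPM (0.44 ± 0.10, 0.0107). Under compound 6 its value was 0.33 ± 0.10 (0.102). EIF4A2, a helicase of initiation, was the second factor called under compound 4 (0.44 ± 0.11, edgeR adjusted p = 0.0236). Under compound 5, EIF4B (0.34) and EIF2S3 (0.31) were called, and 0 factors were called without DMSO replicate 2 or without either replicate of compound 5, and 1 without DMSO replicate 1. The number under compound 5 reached 5 without compound 4 replicate 2. Over other scalings, filters and models and DESeq2 it ran from 1 to 9, against 0 to 4 under compound 4 and 0 to 3 under compound 6. The medians over the 18 factors were 0.15, 0.13 and 0.09.

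Of 14 genes of the RNA polymerase I machinery, which transcribes ribosomal RNA, edgeR called 1 higher under compound 4 (POLR1D, log2 0.37). Under compound 5 it called 3 higher (TAF1A 0.71, POLR1B 0.49 and POLR1D 0.32), and under compound 6 it called 0. Of all genes tested, 6.5%, 13.9% and 2.8% were called higher. With each compound 0 of the 14 were called lower, against 5.42%, 14.2% and 1.6% of all genes tested. At an unadjusted p under 0.05 in edgeR, 5 of them passed under compound 5, 3 higher and 2 lower, against 41.5% of all genes. TAF1A was at 3.94 and 5.34 CPM in DMSO and at 7.15 and 8.16 CPM under compound 5. Without DMSO replicate 1, or without either replicate of compound 5, 0 were called under compound 5, and without DMSO replicate 2 it was 1. The number called higher under compound 5 ran from 1 to 5 over other scalings, filters and models and DESeq2. It was 5 when the fit held just the compound 5 and DMSO samples. Over these settings, 0 to 2 were called lower under compound 5. Of 52 nucleolar factors that process ribosomal RNA and assemble the subunits, 11 rose under compound 5 and 0 fell, against 13.9% of all genes called higher and 14.2% called lower. DDX21, a nucleolar helicase, was at 291 and 299 CPM in DMSO and at 534 and 519 CPM under compound 5 (log2 0.84 ± 0.12, edgeR adjusted p = 0.000787). RRP12, an export factor of the subunits, rose by 0.82 ± 0.14 (edgeR adjusted p = 0.00183). DDX21 was also higher under compound 5 than under compound 4 (edgeR adjusted p = 0.00813) or compound 6 (0.0183), as was RRP12 (0.031 and 0.0347). Under compound 4, 1 of the 52 was called, TCOF1, lower (log2 -0.46 ± 0.10, edgeR adjusted p = 0.0156), and under compound 6 it was 0, where 5.42% and 1.6% of all genes tested were called lower. The count of lower calls under compound 4 was 0 without either DMSO sample and up to 3 without compound 4 replicate 1, and 1 to 3 over other scalings, filters and models and DESeq2. Under compound 6 it was 0 to 2 over these settings. The 11 calls under compound 5 became 3 without DMSO replicate 1, 6 without DMSO replicate 2, 5 without compound 5 replicate 1, 4 without compound 5 replicate 2, and 6 with library size alone, and rose to 15 without compound 4 replicate 2. Over other scalings, filters and models and DESeq2 they ran from 6 to 21, with 20 when only the 2 groups compared were fitted and 21 with the longest-transcript correction.

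Of 19 regulators of TOP mRNAs and ribosome supply, edgeR called 1 higher under compound 4, 8 under compound 5 and 2 under compound 6, and 0 lower, where 6.5%, 13.9% and 2.8% of all genes tested were called higher. Because the list was drawn up with earlier results of these data known, its counts are a description and no test against these shares. EIF4EBP1, a translation repressor that mTOR switches off, rose with all 3 compounds, where its 6 samples lay between 65.5 and 79.8 CPM and those of DMSO at 50.5 and 46.5 CPM (log2 0.58, 0.65 and 0.55, edgeR adjusted p = 0.0119, 0.00329 and 0.0321). SESN2, a stress-induced inhibitor of mTOR, rose under compound 5 (1.53 ± 0.19, edgeR adjusted p = 0.000396) and compound 6 (0.90 ± 0.19, 0.0287). It was at 22.3 and 22.9 CPM in DMSO and at 32.1 and 51.7 CPM under compound 6, where the value was 0.52 without replicate 2 and 1.22 without replicate 1 of that compound. MYC was at 274 and 265 CPM in DMSO and at 445 and 504 CPM under compound 5 (0.82 ± 0.10, edgeR adjusted p = 0.000408), and differed between compound 5 and compound 4 (0.66) and compound 6 (0.63) with adjusted p-values of 0.00645 and 0.00568. EIF2AK3, the kinase PERK of the endoplasmic reticulum, rose by 1.06 ± 0.13 under compound 5 (edgeR adjusted p = 0.000429). LARP1 just passed under compound 5 (0.38 ± 0.13, edgeR adjusted p = 0.0495, and 0.0626 with the replicate block), and MTOR did not (0.44 ± 0.20, 0.116). The 8 calls under compound 5 were 5 to 10 with 1 library left out.

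Mitochondrial ribosomal protein genes, which share no member with the cytosolic ones, stand beside them for comparison. Of 78 tested, edgeR called 0 under compound 4, 16 lower under compound 5 and 1 lower under compound 6, and 0 higher, where 5.42%, 14.2% and 1.6% of all genes tested were called lower. The medians were 0.01, -0.21 and -0.10. MRPL39, of the large mitochondrial subunit, had the lowest values, with log2 -0.77 ± 0.15 for compound 5 (edgeR adjusted p = 0.00397) and -0.65 ± 0.15 for compound 6 (0.0372, and 0.051 with the replicate block). The number called under compound 5 ran from 10 to 32 over other scalings, filters and models and DESeq2, with 26 for upper quartile scaling and 32 for library size alone. It was 2 without DMSO replicate 1 or without compound 5 replicate 1, 7 without DMSO replicate 2 and 9 without compound 5 replicate 2. Over the other scalings, filters and models and DESeq2, up to 4 were called lower and up to 1 higher under compound 4, and up to 2 higher under compound 5. Without compound 4 replicate 1, 2 were called higher under compound 4. Of the genes of these lists named above by the rule, RPS27L, DDX21, EIF4EBP1, SESN2, MYC and MRPL39 kept their calls under compound 5 with each of the 8 samples left out, with edgeR adjusted p-values of up to 0.0362 (MRPL39). The other calls of these genes were each lost without a DMSO sample. Without DMSO replicate 2 the adjusted p was 0.073 for RPL26L1, 0.0646 for EEF2, 0.0518 for TAF1A, 0.167 for POLR1D and 0.0806 for LARP1 under compound 5, and 0.23 for EEF2, 0.151 for EIF4A2, 0.26 for POLR1D, 0.157 for TCOF1 and 0.132 for EIF4EBP1 under compound 4. Under compound 6 it was 0.234 for RPS27L, 0.184 for SESN2, 0.184 for MRPL39 and 0.241 for EIF4EBP1.

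Transcript length moved with the fold changes over all genes. Of the 77 members, 70 had a length of up to 1000 bases, and the 3685 genes tested of that length had a median log2 fold change of -0.09 under compound 5, against 0.10 for the genes over 3000 bases. Under compound 4 these medians were 0.04 and -0.05, and under compound 6 they were -0.01 and 0.03. A correction of each sample for GC content and length moved the medians of the members under compound 5 to 0.13 for the large and 0.11 for the small subunit. It left RPS26 as the single member called, and together with the replicate number as a block it called RPL10 and RPL4 higher as well, against 17.4% of all genes. When the length of the longest coding transcript was used, 28 members were called higher under compound 5, against 18.3% of all genes, so the count of calls depends on how transcript length enters, and the part of transcript length in the levels was not tested further.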

How the data were processed

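RNA-seq of 8 samples was used. The authors quantified reads with Salmon 1.5.0 on GENCODE 38 (GRCh38), summarized them to genes with tximeta and deposited estimated counts as whole numbers, which were not scaled. By the labels, replicate 1 of compounds 4 and 5 is marked as merged from a pair of S numbers, whose meaning is not given.

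Libraries were scaled by TMM (factors 0.958 to 1.0388), and CPM are counts per 1000000 of the scaled library size. Genes were kept by filterByExpr, and 1 quasi-likelihood model with 4 groups was fitted to all samples (edgeR 4.0.16, R 4.3.3), with Benjamini-Hochberg adjustment over 13404 genes and calls at adjusted p under 0.05. Intervals are 95% and cover replicate spread as modelled. DESeq2 1.42.0, other scalings (RLE, upper quartile, library size alone, TMM without members), other filters, a replicate block, a loess correction for GC and length (span 0.3), only the 2 groups compared, pseudogenes added to their parents, and each sample left out (a sample then alone in its group was assumed to vary like the other groups) were alternatives.

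Coordinates, lengths and 31-base words came from GENCODE 29 (GRCh38), mRNA starts from RefSeq (GRCh38.p14). Lengths and GC are medians over coding transcripts. The longest transcript was used at first and replaced after its values were seen, and is kept as an alternative. Symbols matched 60089 of 60230 identifiers. Members and lists were chosen with earlier results of these data known. Named genes were, for each compound, the 3 members with the highest and lowest change; the 3 with most and fewest counts per kb; members called between compounds; RPLP0, RPLP1, RPLP2 and RPSA; paralogs, FAU and RACK1; and the extremes of each other list with LARP1, MTOR, MYC and EIF4EBP1. Genes named beyond these (RPL5, RPL11, RPS6, RPL9, RPL34, RPS18, RPS27, RPL26, EIF4B, EIF2S3, POLR1B, RRP12, EIF2AK3, TSR2 as a member's chaperone, and members called in 1 alternative) were chosen after values were seen. A further named gene is not reported here.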

Additional observations from a re-analysis of the deposited data

How the results depend on the processing

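Of the counts of called members and the medians and summed counts of the subunits, 259 values under an alternative stayed within 1.5 times (counts) or within the spread between replicates (medians), and 17 moved further. The medians near 0 did not keep their sign. Those under compound 5 (0.04 for the large and 0.02 for the small subunit) were -0.048 and -0.069 after upper quartile scaling and -0.065 and -0.088 for library size alone, and were also below 0 without DMSO replicate 2 (-0.011 and -0.026), while without compound 5 replicate 2 the small subunit was at -0.025. Those under compound 6 (0.06 and 0.04) were -0.023 and -0.059 without DMSO replicate 2. The number of members called with compound 5 was 1 in the test as reported, 3 with the GC and length correction joined to the replicate block, 29 with the correction by the longest transcript (chosen after seeing the data), and 0 to 1 with 1 sample left out. With compound 4 it was 0 to 6 with 1 sample left out. For compound 5 against compound 4 it was 1 after upper quartile scaling, 1 for library size alone and 0 to 11 with 1 sample left out. The median of the large subunit with compound 5 was 0.23 with the longest transcript. The median of the small subunit with compound 5 was 0.11 with the GC and length correction, 0.12 with that correction and the block, 0.20 with the longest transcript, and -0.026 to 0.119 with 1 sample left out. The cause of these shifts was not tested.

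The replicate 2 minus replicate 1 gaps correlated between groups at -0.09 to 0.11 over all genes and at 0.37 to 0.75 over the members. Over the other genes at or above the level of the least abundant member it was -0.57 to 0.66. The sources do not say what the day labels share, so whether the numbers pair the samples is not settled. The test as reported had no block. With the replicate block, the numbers of members called were again 0, 1 and 0 against DMSO and 0 in each comparison of compounds, and RPS26 kept its call (edgeR adjusted p = 0.0142). Among named genes outside the members the block lost the calls of EEF2 under compound 4 (0.0528), LARP1 under compound 5 (0.0626), and RPS27L (0.0617) and MRPL39 (0.051) under compound 6, and added that of RPL22L1 under compound 5 (0.021). A count of 0 in a library allows a level of up to 0.225 to 0.317 CPM (3 counts), which covers counting error only and lies below the level of every member.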
